A study of Mus musculus with 24 samples.

Results

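The genes described here were chosen as markers of the dendritic cells that cross-present antigen, known as conventional type I dendritic cells. They are 10 gene symbols chosen by name (Xcr1, Clec9a, Batf3, Irf8, Wdfy4, Zbtb46, Flt3, Itgae, Ccr7 and Slamf9), out of 35976 genes in each expression table, and all 10 were found. The libraries come from CT26, a colon carcinoma line of BALB/c mice, with a Sun1 knockout line and lines labelled Wildtype that serve as controls. Whole tumors were collected 14 days after 1000000 cells were injected under the skin of BALB/c mice, and they gave 7 knockout libraries and 8 libraries of control line 1. Tumor cells separated from tumors by an isolation kit gave 2 libraries each of the knockout, control line 1 and control line 2, and cultured cells gave 1 library of each line. Only 1 knockout line is named, so loss of Sun1 and the other traits of that line cannot be told apart. The mice's age and sex are not given in the labels.

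Cross-presenting dendritic cells take up material from dying cells, load its peptides on MHC class I and so prime CD8 T cells against tumors and viruses. The lineage depends on the transcription factors IRF8 and BATF3 and on the growth factor FLT3L, and in tumors these cells are few. They carry XCR1, the receptor for a chemokine that natural killer cells and CD8 T cells release, and CLEC9A, which binds actin filaments exposed on dead cells. Several of the 10 genes are shared with other cells. Irf8 is also active in macrophages and B cells, Zbtb46 in endothelium, Itgae in tissue-resident T cells, Ccr7 in naive T cells, and Slamf9, a receptor of the SLAM family, in other myeloid cells.

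RefSeq places Xcr1 on chromosome 9 from 123852315 to 123862029, Clec9a on chromosome 6 from 129408862 to 129424764 and Slamf9 on chromosome 1 from 172458569 to 172478421 (GRCm38.p6). Batf3 also lies on chromosome 1 (191098414 to 191108943), and Irf8 on chromosome 8 (120736358 to 120756694). Wdfy4 spans 234309 bases of chromosome 14, and Zbtb46 122254 bases of chromosome 2. Irf8 was among the genes called higher in knockout tumors, and its upstream sequences are not shown. Those of Xcr1, Clec9a and Slamf9, 3 others called higher, are given below. Each is the 250 bases before a RefSeq start site, 5′ to 3′ on the gene's strand, and for Slamf9 the start lies inside the gene's annotated span. Capitals mark a match to any of the motifs searched on both strands.

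Xcr1, chr9:123862030-123862279, minus strand: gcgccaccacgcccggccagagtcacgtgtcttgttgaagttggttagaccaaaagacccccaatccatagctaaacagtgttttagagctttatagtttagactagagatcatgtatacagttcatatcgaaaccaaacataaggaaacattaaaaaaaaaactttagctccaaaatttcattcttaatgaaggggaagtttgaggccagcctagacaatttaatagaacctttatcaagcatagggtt
Clec9a, chr6:129408612-129408861, plus strand: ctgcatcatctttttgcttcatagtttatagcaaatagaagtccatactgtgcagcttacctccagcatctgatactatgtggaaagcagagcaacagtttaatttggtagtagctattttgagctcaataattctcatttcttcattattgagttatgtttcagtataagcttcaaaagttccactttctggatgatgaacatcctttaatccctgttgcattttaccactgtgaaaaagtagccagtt
Slamf9, chr1:172475110-172475359, plus strand: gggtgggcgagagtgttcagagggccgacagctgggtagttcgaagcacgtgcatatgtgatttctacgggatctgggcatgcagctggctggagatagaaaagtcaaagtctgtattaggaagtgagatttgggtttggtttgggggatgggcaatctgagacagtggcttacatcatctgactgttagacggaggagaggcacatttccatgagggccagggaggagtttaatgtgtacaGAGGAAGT

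The motifs were TGANTCA, a site of AP-1 and BATF factors, GAAA repeated with any 2 bases between, an interferon regulatory factor site, GGAA then GAAA with any 2 bases between, a joint ETS and interferon regulatory factor site, GAGGAAGT, a PU.1 site, and TGANTCA with GAAA 4 bases before or after it. The capitals in the Slamf9 sequence are the PU.1 letters at bases -8 to -1, which 2.44% of 32851 upstream sequences also held. The Xcr1 and Clec9a windows held none of the motifs. RefSeq gave 9 upstream sequences for 8 of the 10 genes, and 1 other match, TGANTCA at bases -61 to -55 of Zbtb46, was found in them. TGANTCA occurred in 6.75% of all upstream sequences, the repeated GAAA in 2.98%, GGAA with GAAA in 2.30% and the joint motifs of TGANTCA with GAAA in 0.0974% (GAAA after) and 0.131% (GAAA before). A match describes letters only, and binding was not measured.

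Total expected counts per library were 14140769 to 24651279, so 1 read amounted to 0.0406 to 0.0671 CPM (counts per 1000000 after TMM scaling). Sun1 measured 58.1 CPM (SD 5.21, n = 7) in knockout tumors and 180 CPM (SD 7.33, n = 8) in control tumors. The leukocyte gene Ptprc, which encodes CD45, ranged from 158 to 243 CPM in knockout tumors and from 71.0 to 155 CPM in controls. Knockout replicate 1 stood apart, with a summed level of 6 skeletal muscle markers of 106 CPM, against 1.60 to 21.6 CPM in the other tumors. Its summed level of 5 lymph node stroma genes was 5.74 CPM, against 0.0406 to 1.85 CPM elsewhere. Whether each replicate is its own mouse is not stated in the labels, so p-values measure the spread between these libraries. In bulk tumors, more cells of a type and more RNA per cell cannot be told apart.

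In whole tumors the question is how the genotype of the injected cells relates to the dendritic cell genes of the tumor. Slamf9, Xcr1, Irf8 and Clec9a rose in knockout tumors, by 3.37-fold, 3.27-fold, 1.42-fold and 2.03-fold, and the other 6 genes did not pass the test. These 4 of 10 compare with 18.1% of the 13752 genes tested that were higher, and 0 of 10 fell, where 19.0% of all genes were lower (edgeR adjusted p under 0.05). All 10 genes passed the filter on low counts. The median log2 fold change of the 10 was 0.48, beside 0.01 for all genes tested. In 2 of the 10, Xcr1 and Slamf9, every knockout tumor lay above every control tumor, which was so for 3.26% of all genes.

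**Figure D1:**
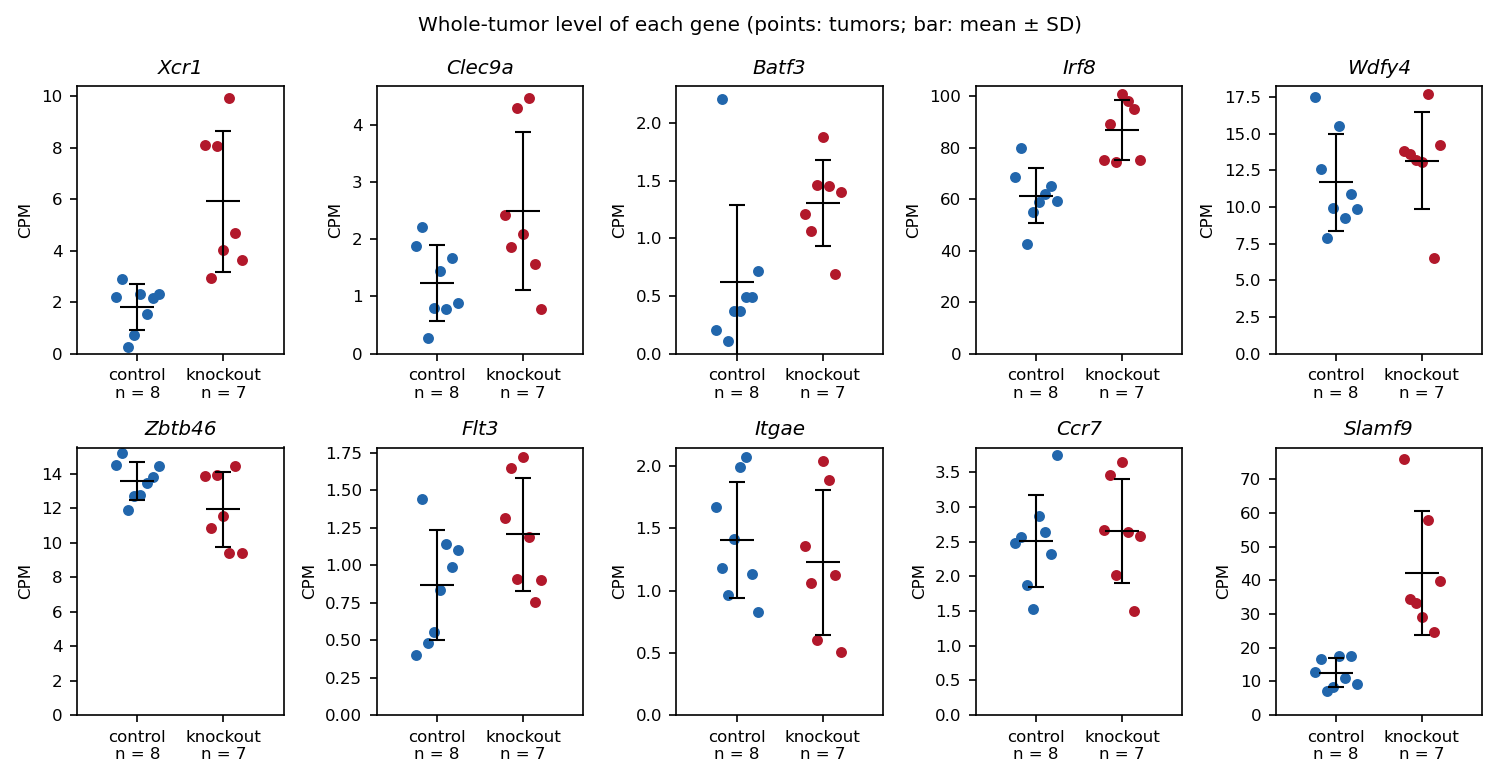
Level of the 10 genes in whole tumors, as CPM on a linear axis from 0. Each point is a tumor (8 control in blue, 7 knockout in red) and the bar is the mean ± SD, with the lower end for Batf3 controls below the axis. The groups separate fully for Xcr1 and Slamf9, while those of the other 8 genes overlap.

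Xcr1 is the chemokine receptor that defines the lineage. It measured 2.93 CPM in the lowest, 4.70 in the median and 9.92 in the highest knockout tumor, and 0.267, 2.19 and 2.88 CPM in control tumors. The gap between the groups was thus narrow, from 2.88 to 2.93 CPM, and the highest knockout tumors were replicates 1, 3 and 5, with 8.09 to 9.92 CPM. The log2 fold change was 1.71 ± 0.36 (SE; edgeR adjusted p = 0.00175). Leaving out each tumor in turn gave 1.54 to 1.84, with an edgeR adjusted p of 0.00455 at most. Without knockout replicate 1, the library rich in muscle markers, it was 1.62.

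Clec9a, the receptor for dead cells, measured 0.785, 2.09 and 4.48 CPM (lowest, median, highest) in knockout tumors and 0.267, 1.16 and 2.21 CPM in controls. The groups overlapped, with 3 of 7 knockout tumors above the highest control, and the highest values were again replicates 5 and 3. Its log2 fold change was 1.02 ± 0.38 (edgeR adjusted p = 0.0400). The call was lost when knockout replicate 1, 3 or 5 or control replicate 3, 4, 6 or 8 was left out (edgeR adjusted p = 0.0574, 0.0938, 0.104, 0.0586, 0.0701, 0.0738 and 0.0662). It was also lost without the filter on low counts (0.0682).

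The ratio of Xcr1 to Clec9a CPM, examined after the values were seen, had a higher median in knockout tumors. It ranged from 1.57 to 4.64 with a median of 2.22 in knockout tumors, and from 0.923 to 2.63 with a median of 1.30 in control tumors. All 7 knockout tumors lay above the control median. On the log2 scale the means differed by 0.82 (1.31, SD 0.55, n = 7, against 0.49, SD 0.51, n = 8). Since these tumors prompted the ratio, no test is given. The separate log2 fold changes of the 2 genes overlap within their standard errors, which do not account for both being measured in the same tumors.

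Batf3, the transcription factor required for the lineage, measured 0.689, 1.40 and 1.88 CPM in knockout tumors and 0.107, 0.429 and 2.21 CPM in controls. The highest value of all was control replicate 2, while the other 7 controls had at most 0.716 CPM. The log2 fold change of 1.06 ± 0.42 missed the threshold (edgeR adjusted p = 0.0532). Without control replicate 2 it was 1.71 and passed (edgeR adjusted p = 0.000557), and it also passed without knockout replicate 6 (0.0408) and with DESeq2 (adjusted p = 0.0454). The authors' deposited table gives Batf3 as 1.21 higher in knockout on the log2 scale (adjusted p = 0.000106) and Flt3 as 0.70 higher (adjusted p = 0.0459), and calls 6 of the 10 genes in that direction.

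Irf8 encodes the partner factor of BATF3 in this lineage. Its level was 74.4, 89.3 and 101 CPM in knockout tumors and 42.6, 60.6 and 79.9 CPM in controls. The spread was small, with a coefficient of variation of 13.6% and 17.6%, and 7 of 8 controls lay below the lowest knockout tumor. It rose by 0.50 ± 0.11 on the log2 scale (edgeR adjusted p = 0.00143), and by 0.44 to 0.57 when each tumor was left out in turn. Irf8 was also detected in cultured cells, with 1 library per line. There it measured 14.4 CPM (296 counts) in the knockout line, 0.709 CPM (13 counts) in control line 1 and 3.14 CPM (62 counts) in control line 2. The knockout library held 20.4 times the level of control line 1 (95% exact binomial interval 11.7 to 38.7, counting error only) and 4.59 times that of control line 2 (3.48 to 6.14), which compares these libraries and not the lines. The authors' deposited table for culture gives Irf8 as 2.73 higher in knockout on the log2 scale and does not call it (adjusted p = 0.0959).

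Zbtb46, a transcription factor of conventional dendritic cells, measured 9.38, 11.5 and 14.5 CPM in knockout tumors and 11.9, 13.6 and 15.2 CPM in controls. The groups overlapped and the log2 fold change was -0.19 ± 0.10 (edgeR adjusted p = 0.159). This gene was not limited to host cells here, with 5.03 to 6.84 CPM in the 3 cultured libraries and 8.06 to 15.3 CPM in the 6 purified ones.

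Wdfy4 encodes a BEACH-domain protein that dendritic cells need to cross-present material from other cells. It measured 6.52, 13.6 and 17.7 CPM in knockout tumors and 7.86, 10.4 and 17.5 CPM in controls, so the groups overlapped almost wholly. Its log2 fold change was 0.18 ± 0.18 (edgeR adjusted p = 0.467). The 6 knockout tumors other than replicate 6 lay between 13.0 and 17.7 CPM.

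Flt3, the receptor for the growth factor of the lineage, measured 0.752, 1.19 and 1.72 CPM in knockout tumors and 0.402, 0.911 and 1.44 CPM in controls (log2 fold change 0.46 ± 0.29, edgeR adjusted p = 0.214). Itgae, the integrin chain CD103 of migratory dendritic cells, measured 0.505, 1.13 and 2.04 CPM against 0.826, 1.30 and 2.07 CPM (-0.20 ± 0.30, edgeR adjusted p = 0.625). Ccr7, the receptor that guides mature dendritic cells to lymph nodes, measured 1.50, 2.64 and 3.65 CPM against 1.53, 2.53 and 3.75 CPM (0.08 ± 0.21, edgeR adjusted p = 0.782). In each of these 3 genes the groups overlapped and the standard error was at least 0.21. The sign for Ccr7 turned without knockout replicate 4 (-0.0095).

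Slamf9 is a SLAM-family receptor whose difference was close in size to that of Xcr1. It measured 24.6, 34.5 and 76.0 CPM in knockout tumors and 7.11, 11.9 and 17.6 CPM in controls, with a gap of 17.6 to 24.6 CPM between the groups. Knockout replicates 1 and 5 were the highest, at 76.0 and 58.0 CPM. The log2 fold change was 1.75 ± 0.27 (edgeR adjusted p = 0.000296), and 1.54 to 1.85 when each tumor was left out, with 1.54 being the value without replicate 1.

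Compared per transcript length in the authors' TPM values, the 10 genes spanned a wide range of levels. In knockout tumors the order of mean TPM was Slamf9 (54.8, SD 22.6), Irf8 (36.6, SD 5.37), Batf3 (3.69, SD 1.18), Zbtb46 (3.28, SD 0.499), Ccr7 (1.72, SD 0.507), Xcr1 (1.52, SD 0.704), Wdfy4 (1.42, SD 0.363), Clec9a (0.934, SD 0.538), Flt3 (0.393, SD 0.122) and Itgae (0.371, SD 0.184). Batf3 and Zbtb46 lay within their SDs of each other, as did Ccr7, Xcr1 and Wdfy4, and Flt3 and Itgae. In control tumors Irf8 (28.1, SD 6.18) stood above Slamf9 (18.2, SD 6.78), and Xcr1 (0.505, SD 0.264) was level with Clec9a (0.506, SD 0.291). Slamf9 and Irf8 were thus the most abundant of the 10 transcripts in both genotypes, and the genes most restricted to the lineage were among the rare ones.

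Leukocyte transcripts as a whole were higher in knockout tumors, and Ptprc itself rose by 0.62 ± 0.14 on the log2 scale (edgeR adjusted p = 0.00300). Each gene was therefore also tested per unit of Ptprc in the same library. On that scale the median of all genes shifted to -0.64, 1.24% of genes were called higher and 72.1% lower. The Ptprc level enters the offset of every gene, so its error is shared and these p-values are not comparable with the unscaled ones. For Slamf9 the unadjusted edgeR p was 3.26e-09 per Ptprc and 1.69e-05 unscaled, although its fold change was smaller per Ptprc. Of the 10 genes, 2 were called higher, Slamf9 (1.11 ± 0.19, edgeR adjusted p = 8.17e-08) and Xcr1 (1.12 ± 0.24, edgeR adjusted p = 1.51e-05). Another 3 were called lower, Zbtb46 (-0.81), Itgae (-0.84) and Wdfy4 (-0.46), which is a smaller share than in all genes. Irf8 (-0.10) and Clec9a (0.44 ± 0.29), both called without this scaling, were not called per Ptprc (edgeR adjusted p = 0.633 and 0.163). For Wdfy4 the call no longer held when knockout replicate 1, knockout replicate 6 or control replicate 1 was dropped (edgeR adjusted p = 0.0520, 0.0787 and 0.114). Ccr7 (-0.54, edgeR adjusted p = 0.0522) was called lower when knockout replicate 2 or 4, or any of control replicates 2, 4 and 7, was dropped, and Batf3 higher without control replicate 2 (1.09, edgeR adjusted p = 0.00607). The sign of Irf8, Wdfy4, Flt3 and Ccr7 thus differs between the scalings.

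**Figure D2:**
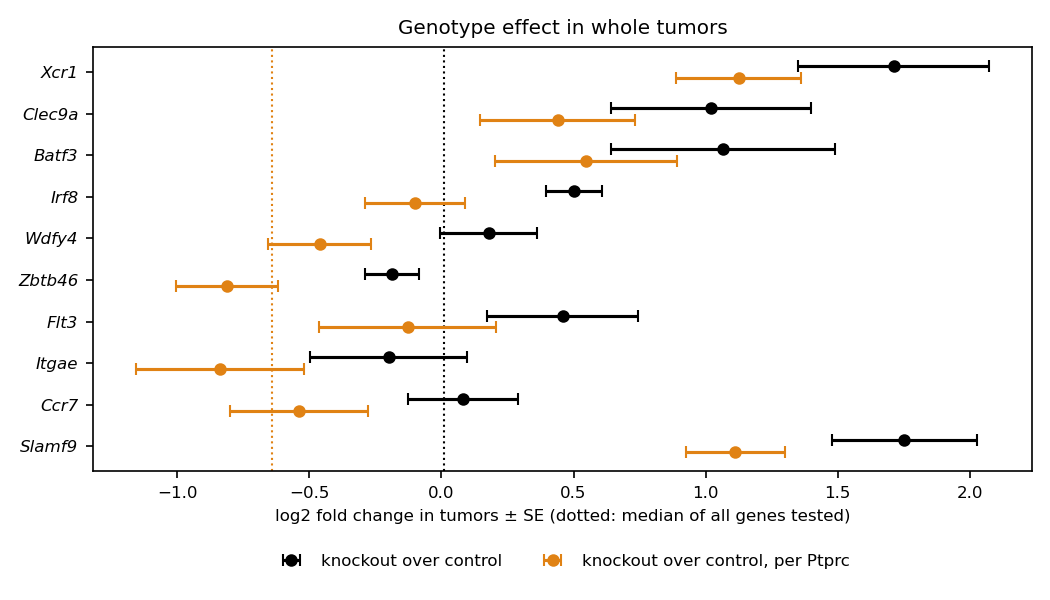
Log2 fold change of knockout over control tumors for each gene, ± SE, from edgeR (black) and from edgeR per unit of Ptprc (orange), with dotted lines at the median of all 13752 genes tested. Xcr1 and Slamf9 lie above 0 on both scales, at 1.71 and 1.12 and at 1.75 and 1.11.

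Expressed as a percent of the Ptprc level in the same tumor, Slamf9 was 15.6%, 19.4% and 33.1% (lowest, median, highest) in knockout tumors and 7.01%, 10.4% and 12.5% in controls, without overlap. Xcr1 was 1.54%, 2.98% and 4.72% against 0.377%, 1.55% and 1.87%, with overlap. Irf8 was 32.7%, 43.4% and 61.3% against 39.6%, 49.8% and 60.0%. Relative to Ptprc, Slamf9 alone of the 10 genes kept the groups fully apart. The share of all genes that did so on this scale was not computed, so whether this sets Slamf9 apart from genes in general is not known.

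Most of these transcripts were far lower in purified tumor cells than in whole tumors. In the knockout line 9 of 10 genes were higher in whole tumors than in purified cells, and in control line 1 all 10 were, where 31.1% and 30.2% of all genes tested were higher (edgeR adjusted p under 0.05). All 10 passed the filter in these fits because they were present in tumors. Mean Ptprc was 190 CPM in knockout tumors and 0.514 CPM in their purified cells, and 124 and 1.76 CPM in control line 1.

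Batf3 had 0 counts in all 6 purified and all 3 cultured libraries. Set against 3 counts summed over the purified libraries, its level in knockout tumors was at least 18.8-fold higher than in purified knockout cells, and at least 7.44-fold higher in control line 1, where the call was lost without either purified library (edgeR adjusted p = 0.0632 and 0.0723). Flt3 had 0 counts in the purified cells of the knockout and of control line 1 (at least 17.2-fold and 10.4-fold higher in tumors) and 1 count in control line 2. Slamf9 kept 0.335% of its tumor level in purified knockout cells (6 counts) and 1.81% in control line 1 (8 counts). Wdfy4 kept 1.64% in the knockout (9 counts, all in 1 library), and Ccr7 kept 3.52% and 4.14% (4 counts each).

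Xcr1 and Clec9a were retained unequally. Xcr1 had 1 count in purified knockout cells and 7 in control line 1, of which 6 came from replicate 2, and its higher level in tumors of control line 1 lost its call without purified replicate 1 (edgeR adjusted p = 0.0760). Clec9a had 14 counts in purified knockout cells (10 and 4) and 4 counts in the 4 control libraries (1, 2, 0 and 1), and 0 in all cultured libraries. Its pooled ratio of knockout to control was 6.27 (95% exact binomial interval 1.97 to 26.2, counting error only). It was too low for the main fit, and without the filter its log2 fold change was 2.51 ± 1.29 (edgeR adjusted p = 0.354). Ptprc measured 0.453 to 0.574 CPM in the purified knockout and 0.549 to 2.25 CPM in the purified controls. The source of the Clec9a counts was not tested.

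Irf8 kept 6.97% of its tumor level in purified knockout cells and 3.21% in control line 1. It measured 6.70 and 5.41 CPM in the purified knockout libraries. Control line 1 had 2.75 and 1.19 CPM, and control line 2 had 4.14 and 3.71 CPM. Zbtb46 kept 110% and 72.7% of its tumor level, and was the gene of the 10 that purification did not deplete in the knockout line (log2 fold change of tumor over purified -0.14 ± 0.19, edgeR adjusted p = 0.563). In control line 1 it was higher in tumors by 0.46 ± 0.15 (edgeR adjusted p = 0.0173), a call lost without purified replicate 1 (0.369).

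**Figure D3:**
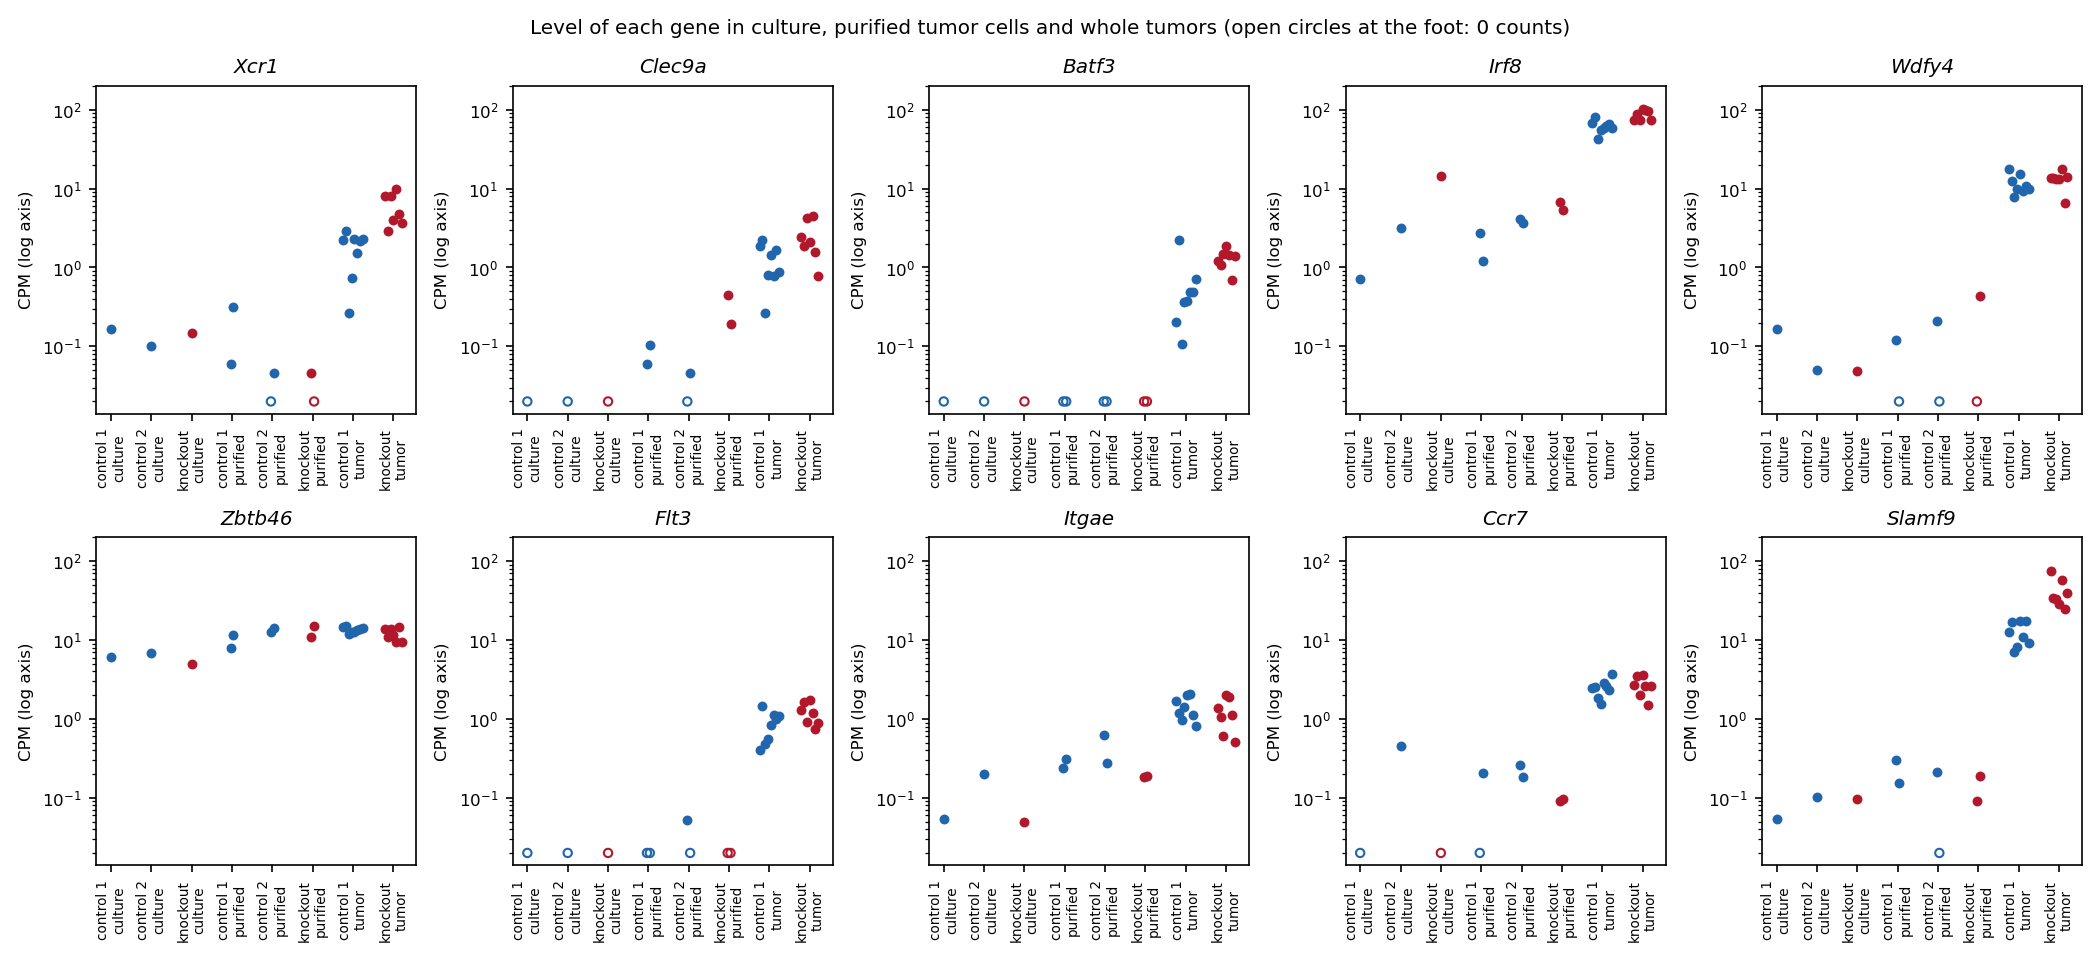
CPM of the 10 genes on a log axis in each of the 24 libraries, by line and setting, with knockout libraries in red and controls in blue and open circles at the foot for 0 counts. Most genes rise by an order of magnitude or more from purified cells to tumors, Zbtb46 stays near the same level, and Irf8 is highest among cultured libraries in the knockout line at 14.4 CPM.

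Within purified cells the comparison asks whether the genotypes differ in tumor cells separated from the tumor. Only Irf8 and Zbtb46 passed the filter on low counts, and 0 of these 2 were called by edgeR, where 4.55% of 12476 genes were. At an unadjusted p under 0.05 there was 1, Irf8, and DESeq2 also called 0. Irf8 was higher in the knockout by 1.04 ± 0.42 on the log2 scale (edgeR adjusted p = 0.190), by 1.64 against control line 1 alone (edgeR adjusted p = 0.00835) and by 0.64 against control line 2 alone, which was not called (edgeR adjusted p = 0.116). Zbtb46 gave 0.16 ± 0.24 (edgeR adjusted p = 0.734).

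The genotype effect in tumors was set against that in purified cells of the knockout and control line 1. For Irf8 it was smaller in tumors by 1.14 ± 0.37 (edgeR adjusted p = 0.0534), and the call passed without control line 1 purified replicate 1 (-1.85, edgeR adjusted p = 0.0205). None of the 10 genes was called by edgeR with all libraries, where 10.1% of all genes were, and 3 had an unadjusted p under 0.05. For Batf3 and Flt3, with 0 counts in both purified groups, the standard errors of 1798 and 562 leave that difference undetermined. The tumor effect on Xcr1 (1.71) and the low counts in purified cells therefore stand side by side without a test that separates them (edgeR adjusted p = 0.147).

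Among tumors of the same genotype, Xcr1 and Clec9a varied together. In the 8 control tumors Pearson's r of log2 CPM was 0.89 (exact permutation p = 0.00216, 0.00863 after Benjamini-Hochberg adjustment over 4 relations) and Spearman's rho 0.79 (exact permutation p = 0.0279, adjusted 0.0960). In the 7 knockout tumors r was 0.78 (exact permutation p = 0.0377, adjusted 0.0503) and rho 0.79 (exact permutation p = 0.0480, adjusted 0.0960). Without the 2 tumors farthest from the Clec9a median, r was 0.61 in controls and 0.70 in knockout tumors. The correlation was lower without those tumors, and the lowest control, replicate 3, had 0.267 CPM of each gene.

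Xcr1 and Slamf9 had r of 0.79 (exact permutation p = 0.00548, adjusted 0.0110) and rho of 0.64 (exact permutation p = 0.0962, adjusted 0.128) in control tumors. In knockout tumors r was 0.60 (exact permutation p = 0.169, adjusted 0.169) and rho 0.39 (exact permutation p = 0.396, adjusted 0.396). Without the 2 tumors farthest from the Slamf9 median, r was 0.72 in controls and -0.21 in knockout tumors, where the relation rests on those 2 tumors.

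**Figure D4:**
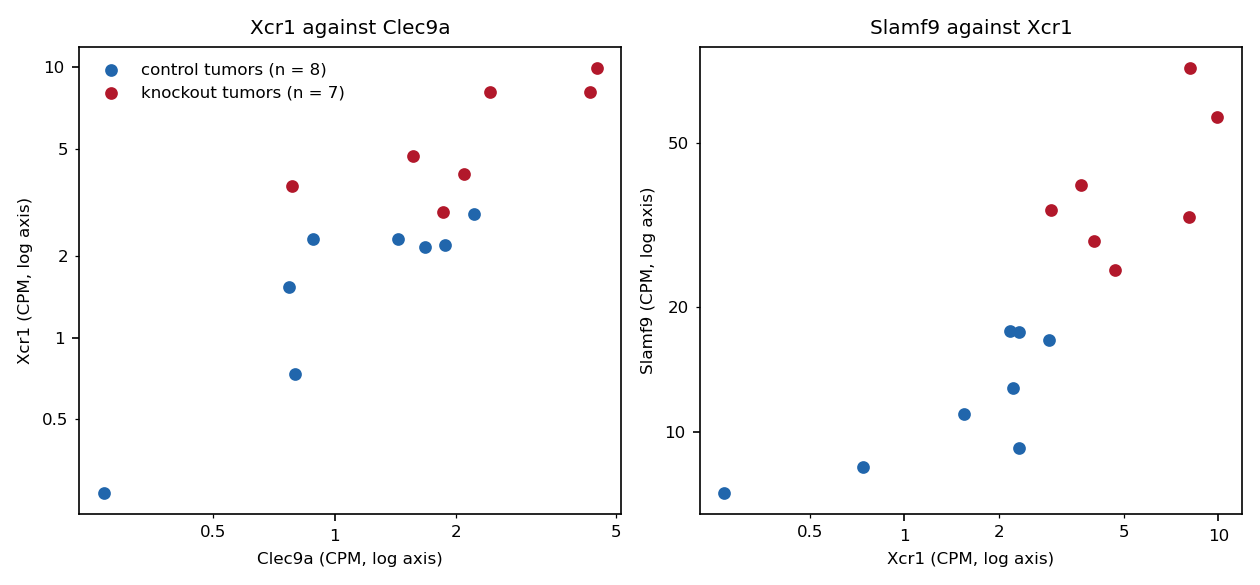
Xcr1 against Clec9a (left) and Slamf9 against Xcr1 (right) in CPM on log axes, with 1 point per tumor, control in blue and knockout in red. At a given level of Clec9a the knockout points tend to lie higher in Xcr1, with median ratios of 2.22 and 1.30.

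As a description, deviations from the genotype means were compared over all 15 tumors. Across the 45 pairs of the 10 genes, Pearson's r of these deviations ranged from -0.29 to 0.84 with a median of 0.33, and Xcr1 with Clec9a was the highest pair, followed by Batf3 with Flt3 (0.76). Over 12848 genes averaging 1 CPM or more in tumors, those most like Xcr1 were Dock10 (0.90), AB124611 (0.89), Zc3h12d (0.89), Chl1 (0.87) and Rab32 (0.87). Those most like Clec9a were Icosl (0.92), D10Jhu81e (0.88), H2-DMb2 (0.87), Evi2b (0.87) and Ilvbl (0.87). Tumors share depth and leukocyte content, and the summed level of 4 leukocyte genes had r of 0.77 with Xcr1, 0.74 with Clec9a and 0.86 with Slamf9. Slamf9 followed the summed macrophage markers most closely (0.92), above their r with Xcr1 (0.68) and Clec9a (0.72).

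Other genes known from this dendritic cell lineage moved in both directions. Of 18 such genes, all tested, 7 rose and 2 fell in knockout tumors, with a median log2 fold change of 0.26 beside 0.01 for all genes, of which 18.1% were higher and 19.0% lower. Per Ptprc 1 was called higher and 7 lower, where 1.24% of all genes were higher and 72.1% lower. Id2, a regulator of the lineage, went from 18.9 to 31.2 CPM (0.72 ± 0.16, edgeR adjusted p = 0.00299) and Tlr3, a sensor of double-stranded RNA, from 51.0 to 73.0 CPM (0.52 ± 0.10, edgeR adjusted p = 0.000426). Ly75, the uptake receptor DEC-205, fell from 64.3 to 41.4 CPM (-0.63 ± 0.10) and Nfil3 from 23.8 to 17.1 CPM (-0.47 ± 0.12, edgeR adjusted p = 8.46e-05 and 0.00366). Purified cells held 53.5 to 85.3 CPM of Ly75, 24.0 to 94.2 of Tlr3 and 15.3 to 23.6 of Nfil3, so these 3 are not limited to host cells here. Tlr12, named after its values were seen and at a mean of 0.0398 CPM in purified cells, rose from 2.39 to 5.33 CPM (1.16, edgeR adjusted p = 0.0214) and was the 1 gene called higher per Ptprc (0.55, edgeR adjusted p = 0.0283).

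Genes of antigen processing for cross-presentation rose in 10 of 20 members and fell in 0, with a median of 0.21, where 18.1% of all genes were higher. Per Ptprc 0 were called higher and 11 lower, where 72.1% of all genes were lower. Vamp8 of vesicle fusion (0.51 ± 0.08, edgeR adjusted p = 4.92e-05), Sec22b of transport between the endoplasmic reticulum and phagosomes (0.44 ± 0.08), the peptide transporter Tap1 (0.32 ± 0.07) and the lysosomal reductase Ifi30 (0.63 ± 0.13) had the smallest p-values. All 4 were well expressed in purified tumor cells, from 10.3 CPM for the lowest Ifi30 value to 503 CPM for the highest Tap1 value.

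Of 20 genes of dendritic cell maturation and migration, 19 were tested, 6 rose and 2 fell, with a median of 0.14, where 18.1% of all genes were higher and 19.0% lower. Per Ptprc 0 were called higher and 10 lower, where 1.24% of all genes were higher and 72.1% lower. The costimulatory receptor Cd40 went from 5.37 to 9.90 CPM (0.88 ± 0.15, edgeR adjusted p = 0.000231) and Samsn1 from 9.72 to 17.3 CPM (0.83 ± 0.12, edgeR adjusted p = 2.17e-05). Il15ra, which presents interleukin 15, rose by 0.51, and Cacnb3 changed by -0.43 (edgeR adjusted p = 0.000121). Cd40 and Samsn1 had at most 0.104 and 0.210 CPM in purified cells. Purified cells held 8.74 to 22.9 CPM of Il15ra and 42.7 to 52.9 CPM of Cacnb3, so these are not limited to host cells here.

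Signals that draw or sustain these dendritic cells included 8 of 17 tested genes that rose and 0 that fell, with a median of 0.52, where 18.1% of all genes were higher. Per Ptprc 2 were called higher and 2 lower, where 1.24% of all genes were higher and 72.1% lower. The chemokine receptor Cxcr6 went from 9.47 to 25.8 CPM (1.44 ± 0.22, edgeR adjusted p = 0.000200), interferon gamma, Ifng, from 4.50 to 9.54 CPM (1.08 ± 0.22, edgeR adjusted p = 0.00121) and the chemokine Ccl4 from 5.21 to 9.05 CPM (0.80 ± 0.19, edgeR adjusted p = 0.00312). Kitl rose by 0.26. The ligands of the receptors above, named after their values were seen, did not pass the test. Xcl1 measured 2.36 against 1.80 CPM (0.38, edgeR adjusted p = 0.274) and Flt3l 7.07 against 6.98 CPM (0.02, edgeR adjusted p = 0.919).

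Markers of other dendritic and host cells are given beside these results, and their part in them was not tested. The share of all genes called was 18.1% higher and 19.0% lower, and per Ptprc 1.24% and 72.1%. Of 9 tested markers of conventional type 2 dendritic cells 1 rose and 1 fell (median 0.25; 1 higher and 3 lower per Ptprc), with Clec12a at 1.16 and Mgl2, at -1.10 ± 0.50, not called. Of 9 tested plasmacytoid markers 2 rose and 2 fell (median 0.67, with 0 higher and 3 lower per Ptprc). The plasmacytoid markers summed to 1538 to 1573 CPM in purified knockout cells and 592 to 664 CPM in purified controls. The type 2 markers summed to 791 to 1391 CPM in purified cells, so neither sum is limited to host cells here. A few genes made up most of these sums. The highest mean CPM in purified cells were S100a4 (857) and Klf4 (149) for type 2, and Bst2 (752) and Tcf4 (135) for plasmacytoid markers. Others were nearly absent there, such as Sirpa (0.511), Clec12a (0.527), Siglech (0.0186) and Ccr9 (0.0249). Macrophage markers rose in 3 of 10 (median 0.52, with 0 higher and 4 lower per Ptprc), and C1qc, a complement subunit, went from 205 to 386 CPM (0.91 ± 0.25, edgeR adjusted p = 0.0127), and their summed level was 1123 to 3026 CPM in knockout and 743 to 2305 CPM in control tumors. T cell markers rose in 8 of 9 (median 1.21, with 5 higher and 0 lower per Ptprc), with sums of 99.8 to 177 CPM against 42.5 to 93.8 CPM and no overlap, and Cd3g of the T cell receptor complex went from 11.1 to 30.4 CPM (1.45 ± 0.14, edgeR adjusted p = 7.77e-07). Endothelial markers rose in 3 of 7 tested (median 0.53, with 0 higher and 1 lower per Ptprc), with sums of 86.1 to 136 CPM against 69.9 to 89.2 CPM. All 4 pan-leukocyte genes rose (median 0.60, with 0 called per Ptprc, itself 1 of the 4), with sums of 427 to 681 CPM against 234 to 447 CPM.

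The 8 B cell markers summed to 2.85 to 7.39 CPM in knockout and 1.26 to 2.64 CPM in control tumors, and only Cd79b passed the filter (1.88, edgeR adjusted p = 0.000284). In purified cells the same markers summed to 3.17 to 3.35 CPM in the knockout and 1.79 to 2.13 CPM in control line 1. Control line 2 held 0.524 to 0.595 CPM, so this sum is not limited to host cells here. The 5 lymph node stroma genes summed to 0.0627 to 5.74 CPM in knockout and 0.0406 to 0.669 CPM in control tumors, where 4 of the 5 had 0 counts. The 7 Langerhans cell and keratinocyte genes summed to 5.59 to 8.47 CPM against 3.82 to 7.74 CPM, of which only Krt10 passed the filter and did not differ past the threshold (edgeR adjusted p = 0.117). Skeletal muscle markers rose in 4 of 6 (median 2.37), with sums of 2.82 to 106 CPM against 1.60 to 14.0 CPM. Without knockout replicate 1, the highest in muscle and lymph node stroma genes, the count of called genes among the 10 was 3, with Clec9a lost.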

How the data were processed

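Libraries were mapped to groups from their titles, and 0 columns of values were left unmapped. Per the submitters' processing notes, FastQC, STAR, RSEM and DESeq2 were used on mm10, and their versions are not given in the sources used here. The authors deposited RSEM expected counts and TPM per gene, used here for tests and for levels between genes. The deposited tables of comparisons give log2 fold changes and adjusted p-values from DESeq2, control over knockout as Sun1 shows, and their sign was turned.

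Expected counts were rounded. Each comparison was fitted in R 4.3.3 by edgeR 4.0.16, scaled by TMM and filtered by filterByExpr (minimum count 10, total 15), with robust quasi-likelihood F tests, two-sided, and Benjamini-Hochberg adjustment over all genes tested at 0.05. Standard errors divide the log2 fold change by the root of its F. Per-Ptprc fits added the log Ptprc level to the offset. Printed CPM use TMM over all 24 libraries, and log2 CPM a prior count of 2. Depth was 14140769 to 24651279 counts, and intervals cover counting error only. Libraries of a group differed by a chi-square per gene of at least 7.38.

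The 10 genes, the lists and the tests were chosen with earlier results of these data known. All 10 genes are named, with the 4 smallest p-values of each list and the 5 genes most like Xcr1 and Clec9a. The fits were tested on simulated data. Alternatives were RLE scaling, no filter, DESeq2 1.42.0, left-out libraries, a block on sample numbers, single control lines and a Ptprc substitute. Sample numbers did not pair the tumors (correlations of deviations -0.11 to 0.22). Upstream sequences and positions come from RefSeq (GRCm38.p6).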

Additional observations from a re-analysis of the deposited data

Results flagged for a closer look

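In 2 of 20 groups of tumor values, 1 tumor stood far from the others of its group, and chance flags about 1 in 20 groups. Batf3 in control replicate 2 measured 2.21 CPM, the highest of 8, with the next control at 0.716 CPM. Wdfy4 in knockout replicate 6 measured 6.52 CPM, the lowest of 7, with the next knockout tumor at 13.0 CPM.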

How the results depend on the processing

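The count of called genes among the 10 in whole tumors was 4, 3 without the filter on low counts, 5 with DESeq2 and 3 to 5 when each tumor was left out. Per Ptprc it was 5, and 4 to 7. RLE scaling gave the same counts in the 5 comparisons where it can act, and it cancels per Ptprc. Between whole tumors and purified cells 9 genes were called in the knockout, also without either purified library, and 10 in control line 1, with 7 to 9 when a purified library was left out. In purified cells 0 were called, 0 when each library was left out, 1 against control line 1 alone (Irf8) and 0 against control line 2 alone. For the difference between settings the count was 0, and 0 to 1 when a purified library was left out. The block on sample numbers, which share only a number, left 4 genes called in tumors, with Clec9a lost (log2 fold change 0.91, edgeR adjusted p = 0.140) and Batf3 gained (1.42, 0.0289), and no tumor correlated best with its own number. With 2 purified libraries per group, the deviations mirror each other, so this check cannot show pairing there. The correlations were 0.04 and 0.07 for the knockout with control lines 1 and 2, and -0.06 between the control lines. With the block, 6 were called per Ptprc and 0 in purified cells. Of 552 values of single genes under alternatives, 517 kept sign and call, 16 lost a call, 13 gained one and 6 changed sign. The changes of sign were Ccr7 in tumors (-0.0095 to 0.18 when each library was left out), Zbtb46 in purified cells (-0.083 to 0.38, and -0.035 against control line 2 alone), Zbtb46 between knockout tumors and purified cells (-0.37 to 0.10), and Wdfy4 (-4.91 to 3.43) and Ccr7 (-3.86 to 1.18) in the difference between settings. The cause was not tested. Counts of at most 12 per purified library limit what can be seen there for 8 of the 10 genes.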
